A study of Mus musculus with 12 samples.

Results

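The genes described here are the Fc gamma receptors of the mouse and the proteins through which they and related receptors signal: 2 adaptors (Fcer1g and Tyrobp), 3 activating receptors (Fcgr1, Fcgr3 and Fcgr4), 1 inhibitory receptor (Fcgr2b), the kinase Syk, the receptor Clec7a and the receptor Sirpa. They were taken by symbol, and all 9 were found among the 49315 genes of the count table and passed the filter on low counts that left 18702 genes. The RNA came from epididymal white adipose tissue (eWAT) of 12 male mice fed a high-fat diet (HFD, 60% fat) for 12 weeks, with 1 library per mouse and 3 mice in each of 4 groups. Flox mice carry floxed miR-181a2b2 alleles (miR-181a2b2flox/flox), and KO mice (miR-181a2b2-/-) lack the locus in all tissues. Each genotype was injected every week with vehicle or with methotrexate (MTX, 1 mg/kg), an antifolate drug used against inflammatory disease. All 4 groups received the diet, so that none of them was lean. Mice were matched for age, and the age itself was not given in the sources used here for these animals. The comparisons ask whether loss of the locus, or MTX, went with a different level of these genes.

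Fc gamma receptors bind the constant part of IgG and let a cell respond to antigens coated with antibody. The activating receptors have no signaling motif of their own and pair with the gamma chain encoded by Fcer1g, whose tail carries an immunoreceptor tyrosine-based activation motif (ITAM). Once its tyrosines are phosphorylated by Src family kinases, the ITAM recruits Syk, while Fcgr2b carries an inhibitory motif (ITIM) that recruits phosphatases and dampens the same signal. Macrophages express both kinds of receptor, and they gather in the adipose tissue of obese animals.

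The deleted locus encodes miR-181a and miR-181b. Their mature 5p sequences (RefSeq, GRCm38.p6) are printed because the seed, bases 2 to 8 in capitals, is what would pair with a target, and both share it.
mmu-miR-181a-5p, chr2:38852741-38852763, plus strand: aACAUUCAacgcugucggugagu
mmu-miR-181b-5p, chr2:38853845-38853868, plus strand: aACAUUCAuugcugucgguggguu
The complement of the seed, TGAATGT, occurred in the 3′UTR of no annotated coding transcript of the 9 genes (0 of 9, GENCODE M21), against 17.2% of 20868 genes with a 3′UTR. This is a description of the letters and says nothing about indirect effects of the locus. No library held a count of either precursor but flox MTX replicate 4, with 2 for Mir181a-2, so the deletion could not be checked in these data.

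Depth was even, with 19495310 to 23976469 counts per library, and 1 count was worth 0.0417 to 0.0513 CPM before TMM scaling (CPM, counts scaled by library size to a common total and then by TMM factors). The summed levels of marker lists are the exception: their CPM were scaled by library size alone. The 8 adipocyte markers summed to between 5630 and 41600 CPM, and the 12 macrophage markers to between 719 and 9750 CPM, with no marker of either list at 0 in any group. The 3 flox vehicle libraries stood apart from the other 9 in another way. They carried markers of the epididymis, the duct beside this fat pad (12 genes, summed to 4600, 13300 and 1490 CPM in replicates 1, 3 and 4), and of testis germ cells (8 genes, 199 to 578 CPM). Elsewhere the epididymis list summed to at most 423 CPM, in flox MTX replicate 1, and the germ cell list to at most 11.4 CPM. Since every flox vehicle mouse was affected, this admixture and the flox vehicle group cannot be told apart in the comparisons that use the group. The counts of calls of these comparisons are also given without flox vehicle replicate 3, the library with the most epididymis RNA. The germ cell list summed to 477 CPM in that library and was highest in flox vehicle replicate 1 (578 CPM). Neutrophil markers (9 genes) also summed to more in this group, 225 to 353 CPM against 31.6 to 105 CPM elsewhere. The single markers did not all go the way of the sum. Of 7 tested, 5 were called higher and 1 lower in flox MTX than in flox vehicle mice. In KO vehicle mice 2 were called higher and 1 lower than in flox vehicle mice. The labels give no batch.

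In mice on vehicle, 8 of the 9 genes were called higher in KO than in flox eWAT, by 4.85-fold (Sirpa) to 11.4-fold (Tyrobp), and Fcgr2b alone was not called. Without flox vehicle replicate 3 all 9 were called, with 25.4% of all genes called in either direction. A call required at least a 1.5-fold change with an adjusted p under 0.1 in edgeR's quasi-likelihood test, and 13.9% of all genes tested were called higher in this comparison (17.8% lower, 31.7% in either direction). The median log2 fold change of the 9 genes was 3.04, against -0.056 over all genes tested. The lowest KO mouse lay above the highest flox mouse for 8 of 9 genes, as it did for 22.8% of all genes. An exact permutation test of 3 mice against 3 (two-sided) cannot go below 0.1, the value that each of those 8 genes reached. In bulk tissue, more cells of a type and more RNA per cell cannot be told apart. The macrophage markers moved with these genes: 11 of 12 were called higher, with a median log2 fold change of 2.42 and summed levels of 719 to 1310 CPM in flox and 4600 to 8340 CPM in KO mice. Fibroblast (6 of 6), endothelial (7 of 8), mast cell (6 of 8) and dendritic cell markers (3 of 5) were called higher too, and 1 of 8 adipocyte markers lower. Of 7 tested neutrophil markers 2 were called higher and 1 lower. The 9 listed summed to less in KO (31.6 to 48.2 CPM) than in flox mice (225 to 353 CPM). Their part in the result was not tested.

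**Figure D1:**
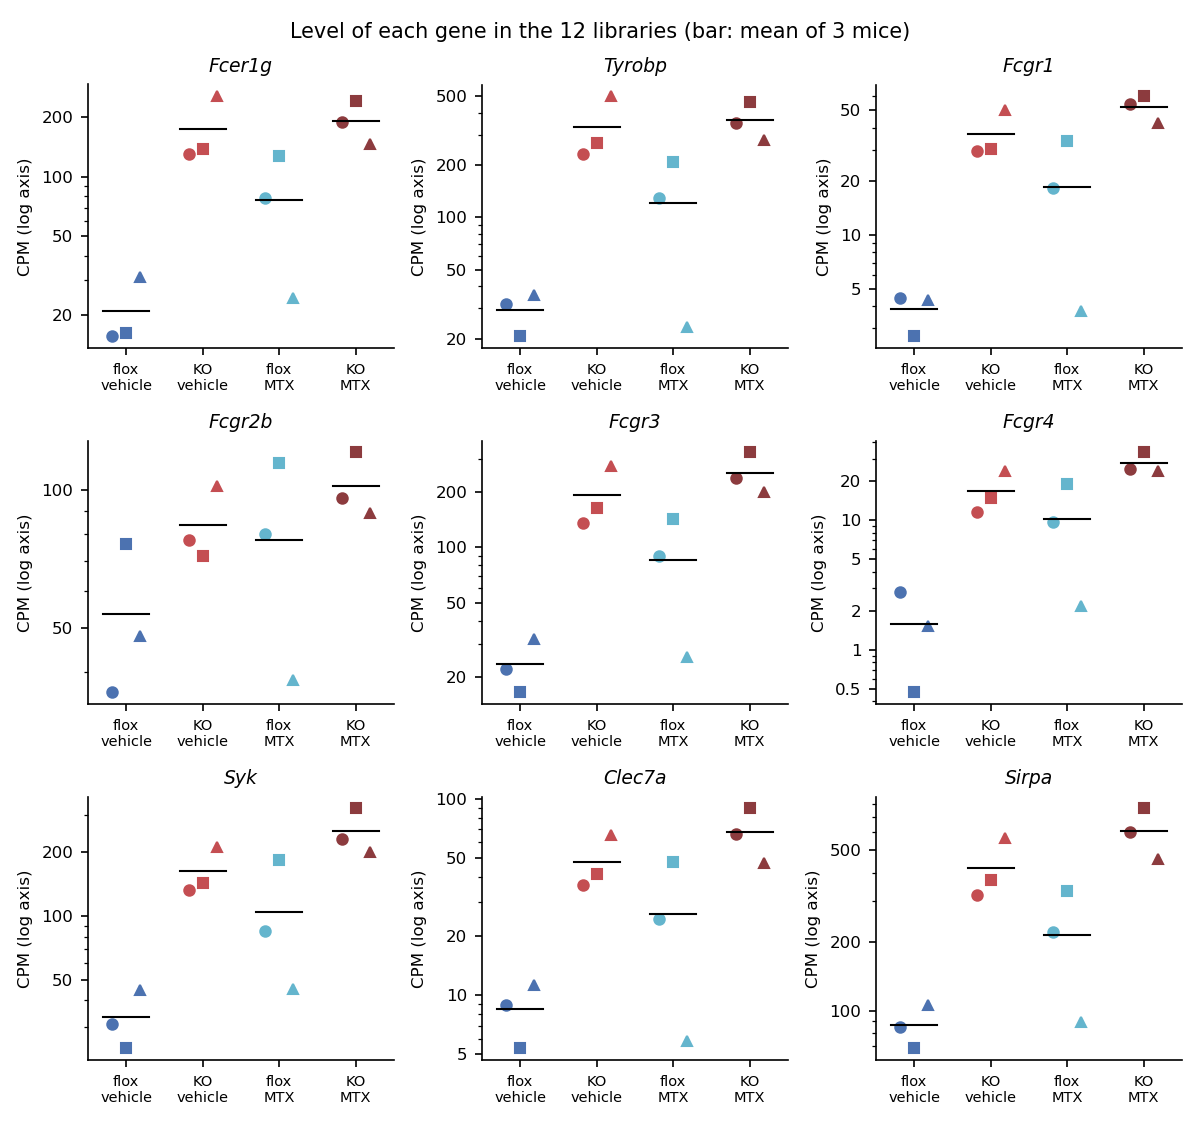
Level of the 9 genes in CPM (log axis, its own range in each panel) in each of the 12 libraries by group. Circle, square and triangle mark the libraries of a group in the order of their replicate numbers, and bars are means of 3 mice. In 8 panels the KO vehicle mice lie above the flox vehicle mice, while in the Fcgr2b panel flox vehicle replicate 3 (76.3 CPM) lies among them, and the flox MTX mice spread from the flox vehicle level up to the KO level.

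Per kilobase of exon, the adaptors had the highest mean levels in every group. Fcer1g (ENSMUSG00000058715, chromosome 1 of GRCm38, 171229572 to 171234365, minus strand) encodes the gamma chain shared by the activating Fc gamma receptors and the IgE receptor. Its level was 15.7, 16.2 and 31.3 CPM for replicates 1, 3 and 4 of the flox vehicle group, and 131, 138 and 255 CPM for replicates 1, 2 and 3 of the KO vehicle group. The groups did not overlap, and the fitted log2 fold change was 3.05 ± 0.54 (SE, adjusted p = 0.00375). Tyrobp (ENSMUSG00000030579, chromosome 7, 30413760 to 30417585, plus strand) encodes DAP12, the adaptor of TREM2 and many other myeloid receptors. In the same order it stood at 31.5, 20.7 and 35.8 CPM in the flox mice and at 233, 269 and 499 CPM in the KO mice, again without overlap. Its log2 fold change of 3.51 ± 0.65 (adjusted p = 0.00413) was the largest of the 9 estimates. KO vehicle replicate 3 was the highest library of the vehicle groups for both adaptors.

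The signaling motif of both adaptors is shown as the coding sequence of the principal transcript (GENCODE M21), with the codons of its tyrosines in capitals. A search of all 9 coding sequences for the ITAM pattern (tyrosine, 2 residues, leucine or isoleucine, a gap of 6 to 12 residues and the same again) found it in these 2 genes and in none of the other 7.
Fcer1g, codons 65 to 79: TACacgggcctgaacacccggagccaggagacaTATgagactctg
Tyrobp, codons 92 to 106: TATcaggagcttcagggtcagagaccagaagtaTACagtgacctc
Both stretches have 45 bases. Motifs with a single tyrosine from other members are given for contrast, again with its codon in capitals: the ITIM of Fcgr2b, 3 such motifs of Sirpa, and the single YxxL motif of Clec7a. The ITIM letters also matched elsewhere in Fcer1g, Tyrobp, Fcgr1 and Fcgr4, which are not known for inhibitory motifs.
Fcgr2b, codons 317 to 322: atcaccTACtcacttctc
Sirpa, codons 434 to 439: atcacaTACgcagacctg
Sirpa, codons 475 to 480: ctcaccTATgctgacctg
Sirpa, codons 499 to 504: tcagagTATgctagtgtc
Clec7a, codons 15 to 18: TATactcaatta
The 2 carriers of an ITAM and the single-motif gene Clec7a were called higher in KO mice on vehicle. Of the 2 genes with inhibitory motifs, Sirpa was called higher and Fcgr2b was not.

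All 3 activating receptors were called higher. Fcgr3 (ENSMUSG00000059498, chromosome 1, 171051174 to 171064935, minus strand) encodes a low-affinity receptor for immune complexes and was the most abundant Fc gamma receptor of the KO libraries per kilobase of exon. It stood at 21.9, 16.5 and 32.0 CPM in the flox vehicle and at 136, 164 and 277 CPM in the KO vehicle mice, a log2 fold change of 3.04 ± 0.54 (adjusted p = 0.00383). Fcgr1 (ENSMUSG00000015947, chromosome 3, 96282909 to 96293969, minus strand) encodes the high-affinity IgG receptor, widely used as a marker of macrophages. It stood at 4.43, 2.71 and 4.34 CPM in flox and at 29.7, 30.4 and 50.3 CPM in KO mice (log2 fold change 3.27 ± 0.60, adjusted p = 0.00413). Fcgr4 (ENSMUSG00000059089, chromosome 1, 171018920 to 171029761, plus strand) encodes a receptor for IgG2a and IgG2b and had the fewest counts of the 9, 12 to 771 per library. It stood at 2.78, 0.472 and 1.52 CPM in flox and at 11.6, 14.8 and 24.2 CPM in KO mice (log2 fold change 3.41 ± 0.73, adjusted p = 0.00651). The lowest of these values, in flox vehicle replicate 3, rests on 12 counts.

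Fcgr2b (ENSMUSG00000026656, chromosome 1, 170958617 to 170976547, minus strand), the inhibitory receptor, is also expressed by B cells and by endothelium of the liver. Its level was 36.1, 76.3 and 47.8 CPM for replicates 1, 3 and 4 of the flox vehicle group and 77.8, 71.8 and 102 CPM in the KO vehicle mice. The groups overlapped through flox vehicle replicate 3, the library with the most epididymis RNA. The log2 fold change was 0.65 ± 0.36 (adjusted p = 0.199), and without that library it was 1.00 and was called (adjusted p = 0.0885). It was also called without flox MTX replicate 4 (0.68, adjusted p = 0.0783), which is not part of the comparison but enters the shared estimate of spread. Across all alternatives its estimate ranged from 0.44 to 1.00, below the lowest estimate of any other member (1.99, Sirpa). B cell markers (6 genes) summed to 15.7 to 40.7 CPM in flox and 23.9 to 66.6 CPM in KO mice with none called, and 7 of 8 endothelial markers were called higher, with a median log2 fold change of 1.14. Their part in the level of Fcgr2b was not tested.

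Fcgr2b and Fcgr3 are close paralogs, and reads that fit both could be lost or shared, since the treatment of such reads is not given in the sources used here. Of the stretches of 100 bases in their transcripts, 1.4% in Fcgr2b and 2.54% in Fcgr3 occur in another gene as well, and of stretches of 150 bases none do. No stretch of 100 bases of the other 7 members occurred in another gene. An antisense gene, Gm38204, shares 155 exonic bases (2.7%) with Fcgr2b, and had 7 counts over all libraries against 21109 for Fcgr2b.

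**Figure D2:**
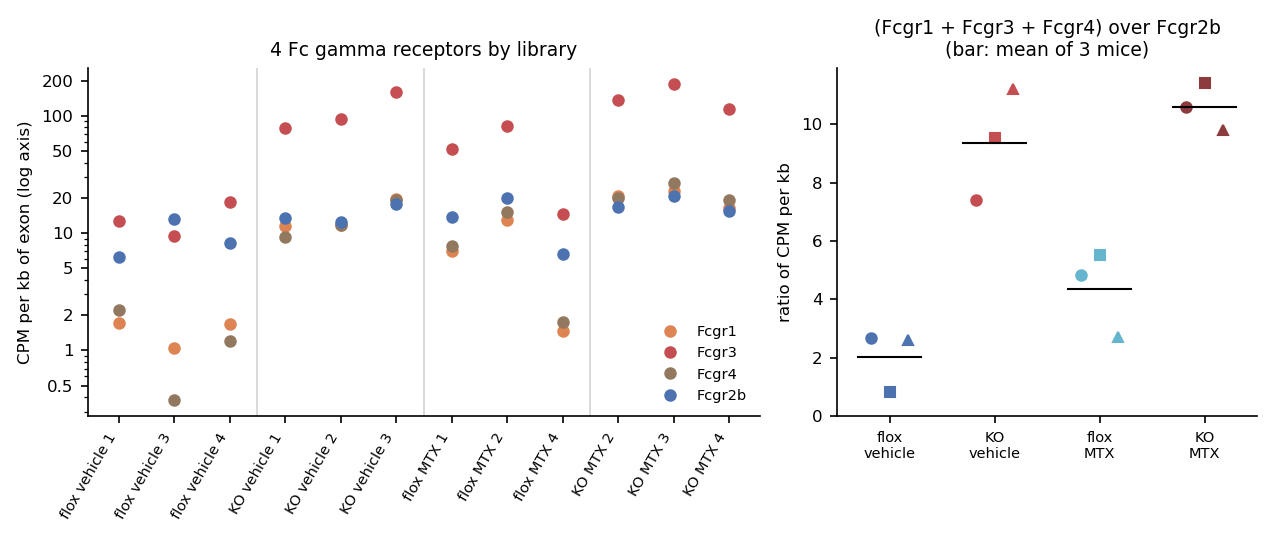
Left, CPM per kilobase of exon (log axis) of the 4 Fc gamma receptors in each library, with lines between the groups. Right, the summed activating receptors over Fcgr2b by library, with circle, square and triangle in the order of replicate numbers and bars for means of 3 mice. The flox vehicle mice lie between 0.829 and 2.66, the flox MTX mice between 2.71 and 5.53, and the KO mice of both treatments between 7.39 and 11.4.

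Per kilobase of exon, the 3 activating receptors together stood at 2.66, 0.829 and 2.59 times the level of Fcgr2b in the flox vehicle mice and at 7.39, 9.52 and 11.2 times in the KO vehicle mice. The mean ratios were 2.02 ± 1.04 and 9.38 ± 1.91 (SD, n = 3), and the flox mean without replicate 3 was 2.62. The ratio was 4.82, 5.53 and 2.71 in the flox MTX mice (mean 4.35 ± 1.47) and 10.6, 11.4 and 9.79 in the KO MTX mice (mean 10.6 ± 0.794). KO and flox mice did not overlap under either treatment, and the lowest flox MTX mouse (2.71) was close to the highest flox vehicle mouse (2.66). Fcgr3 made up most of the sum. The ratio of Fcgr3 to Fcgr2b was 1.66 ± 0.821 in flox vehicle, 7.5 ± 1.59 in KO vehicle, 3.36 ± 1.0 in flox MTX and 8.22 ± 0.757 in KO MTX mice. This ratio was chosen after its values were seen and was not tested. The ratio cancels the library's scaling, so it does not depend on TMM. The summed activating receptors stood at 0.702 ± 0.191 times the gamma chain in flox vehicle, 0.695 ± 0.044 in KO vehicle and 0.714 ± 0.0655 in flox MTX mice, which overlapped, and at 0.859 ± 0.0438 in KO MTX mice, above the KO vehicle mice without overlap.

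Promoters of the 4 Fc gamma receptors are printed since 3 of the genes were called on vehicle and Fcgr2b was not. Each window runs from 250 bases before to 50 bases after the annotated start (RefSeq, GRCm38.p6), and capitals mark the core of PU.1 sites, GAGGAA or TTCCTC on the other strand. PU.1 is a transcription factor of myeloid and B cells.
Fcgr1 promoter, chr3:96293920-96294219, minus strand: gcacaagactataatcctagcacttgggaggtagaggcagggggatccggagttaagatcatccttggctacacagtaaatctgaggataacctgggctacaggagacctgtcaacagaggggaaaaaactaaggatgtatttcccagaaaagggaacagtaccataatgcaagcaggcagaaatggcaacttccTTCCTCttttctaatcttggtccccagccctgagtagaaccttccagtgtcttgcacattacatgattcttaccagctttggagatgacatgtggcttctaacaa
Fcgr3 promoter, chr1:171059354-171059653, minus strand: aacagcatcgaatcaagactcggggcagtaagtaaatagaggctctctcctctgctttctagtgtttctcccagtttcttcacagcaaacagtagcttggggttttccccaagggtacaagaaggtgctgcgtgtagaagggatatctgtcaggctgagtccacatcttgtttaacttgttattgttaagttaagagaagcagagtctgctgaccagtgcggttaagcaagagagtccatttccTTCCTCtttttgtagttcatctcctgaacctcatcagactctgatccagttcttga
Fcgr4 promoter, chr1:171018676-171018975, plus strand: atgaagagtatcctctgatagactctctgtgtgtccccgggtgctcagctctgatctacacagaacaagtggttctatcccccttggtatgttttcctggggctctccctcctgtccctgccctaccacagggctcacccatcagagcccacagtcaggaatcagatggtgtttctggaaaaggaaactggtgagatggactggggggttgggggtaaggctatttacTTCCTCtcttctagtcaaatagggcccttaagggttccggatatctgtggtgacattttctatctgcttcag
Fcgr2b promoter, chr1:170976022-170976321, minus strand: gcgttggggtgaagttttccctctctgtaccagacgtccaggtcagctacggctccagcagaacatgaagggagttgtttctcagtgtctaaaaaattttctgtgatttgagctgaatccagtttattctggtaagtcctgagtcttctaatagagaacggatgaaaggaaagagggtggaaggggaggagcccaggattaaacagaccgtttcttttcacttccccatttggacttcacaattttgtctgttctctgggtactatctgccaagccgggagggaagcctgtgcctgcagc
Counted from the annotated start as 0, the core began at position -55 in Fcgr1, -6 in Fcgr3 and -22 in Fcgr4, each in the orientation TTCCTC, and these letters did not occur in the window of Fcgr2b. Windows were found for 7 of the 9 genes (10 windows, since 3 genes have 2 starts), and 7 of the 10 windows and 5 of the 7 genes held the core, Clec7a and the downstream start of Syk among them. Fcer1g and the upstream start of Syk had none. Of all 32851 promoter windows of this length 28.3% held the core, and of 27025 genes 31.3%. The AP-1 motif TGACTCA was in none of the 10 windows, against 5.2% of all. Matches of so short a motif are descriptions and not sites of binding. The Fcgr3 and Fcgr2b windows belong to starts inside these genes as annotated by GENCODE, so they do not cover the outermost annotated starts.

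Syk (ENSMUSG00000021457, chromosome 13, 52583173 to 52648792, plus strand), the kinase that docks on phosphorylated ITAMs, stood at 31.0, 23.8 and 44.9 CPM in the flox vehicle mice and at 132, 143 and 212 CPM in the KO vehicle mice. It rose without overlap (log2 fold change 2.29 ± 0.45, adjusted p = 0.00484). Clec7a (ENSMUSG00000079293, chromosome 6, 129461591 to 129472779, minus strand) encodes Dectin-1, a receptor for beta-glucans of fungi that signals through Syk. The annotation lists it as a polymorphic pseudogene, a gene that is coding in some mouse strains only. It stood at 8.9, 5.39 and 11.3 CPM in flox and at 36.3, 41.7 and 65.2 CPM in KO mice (log2 fold change 2.49 ± 0.60, adjusted p = 0.0103). Sirpa (ENSMUSG00000037902, chromosome 2, 129592835 to 129632228, plus strand), which binds CD47 on other cells and restrains phagocytosis, stood at 84.8, 68.6 and 106 CPM in flox and at 318, 370 and 569 CPM in KO mice. It rose as well (log2 fold change 2.28 ± 0.43, adjusted p = 0.00432).

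**Figure D3:**
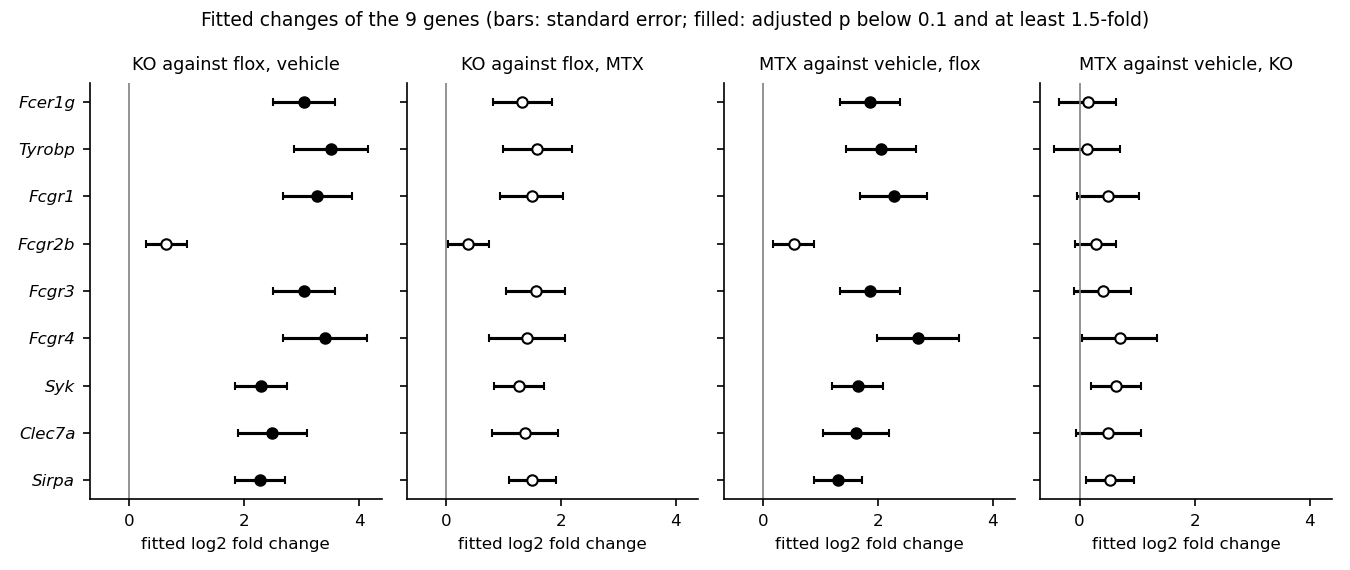
Fitted log2 fold changes of the 9 genes in the 4 comparisons, with standard errors. Filled circles were called (adjusted p below 0.1 and at least 1.5-fold): 8 for KO against flox on vehicle and 8 for MTX against vehicle in flox mice, with Fcgr2b the open circle in both, and none in the other 2 comparisons.

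In mice given MTX, all 9 genes were again higher in KO than in flox eWAT by their estimates, but none was called (0 of 9, edgeR). In this comparison 0% of all genes were called, with a smallest adjusted p of 0.104. At an unadjusted p below 0.05 the count was 7 of 9, against 11.5% of all genes higher at that limit, and DESeq2 called 7 at the same adjusted limit, where it called 16.9% of all genes in either direction. Log2 fold changes ran from 0.39 (Fcgr2b) to 1.59 (Tyrobp), with a median of 1.41 against -0.045 over all genes. KO and flox mice did not overlap for 7 of the 9 genes (14.7% of all genes), the exceptions being Fcgr2b and Clec7a. Sirpa came closest to a call: it stood at 220, 332 and 89.2 CPM in flox MTX replicates 1, 2 and 4 and at 601, 762 and 457 CPM in KO MTX replicates 2, 3 and 4 (log2 fold change 1.5 ± 0.41, adjusted p = 0.107). Without flox MTX replicate 2, edgeR called all of the genes but Fcgr2b (8 of 9), with 20.8% of all genes called in either direction. Macrophage markers were higher at an unadjusted p below 0.05 in 8 of 12 cases and adipocyte markers lower in 7 of 8. At that limit mast cell markers were higher in 5 of 8 cases and endothelial markers in 3 of 8. Neutrophil markers were lower in 4 of 7 tested, mesothelial markers in 4 of 6 and epididymis markers in 3 of 8 tested. Of all genes 24.5% passed this limit in either direction. None of these markers was called, and their part was not tested.

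Fcgr3 and Fcgr4 were among the genes whose ranges separated the genotypes on MTX, and those of Fcgr2b and Clec7a did not. In the edgeR test the p of Clec7a (0.0338, adjusted p = 0.174) was below that of Fcgr4 (0.0554, adjusted p = 0.214), and neither was called. Fcgr3 stood at 90.0, 142 and 25.6 CPM in flox MTX and at 236, 326 and 200 CPM in KO MTX mice, in the same order of replicates. Fcgr4 stood at 9.68, 19.0 and 2.19 CPM in flox MTX and at 24.9, 33.4 and 24.1 CPM in KO MTX mice. For both genes each KO mouse lay above each flox mouse. Fcgr2b stood at 80.1, 115 and 38.3 CPM in flox MTX and at 96.2, 121 and 89.3 CPM in KO MTX mice. Clec7a stood at 24.6, 47.5 and 5.88 CPM in flox MTX and at 66.4, 89.4 and 47.2 CPM in KO MTX mice. These 2 genes overlapped through flox MTX replicate 2.

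The spread of the flox MTX group was wide, and the 3 mice kept the same order for all 9 genes. Tyrobp stood at 130, 210 and 23.4 CPM in flox MTX replicates 1, 2 and 4, and Fcgr1 at 18.4, 33.5 and 3.75 CPM. For both genes replicate 4 lay within the flox vehicle range (20.7 to 35.8 and 2.71 to 4.43 CPM), and replicate 2 of Fcgr1 lay above KO vehicle replicates 1 and 2. The highest mouse of the group stood at 8.97 times the lowest for Tyrobp and at 3 times for Fcgr2b. In the KO MTX group the same quotient was 1.35 to 1.90 for the 9 genes. The macrophage markers spread alike, with 2690, 5180 and 863 CPM in flox MTX replicates 1, 2 and 4.

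MTX in flox mice went with higher estimates of all 9 genes against vehicle, and 8 were called (8.09% of all genes were called higher), with a median log2 fold change of 1.86 against 0.051 over all genes. Fcgr2b was again the exception (0.54 ± 0.36, adjusted p = 0.317). The largest estimates were those of Fcgr4 (2.70 ± 0.72, adjusted p = 0.0262) and Fcgr1 (2.28 ± 0.58, adjusted p = 0.0223). These calls depended on the libraries and on the fit. The flox MTX mice overlapped with the flox vehicle mice for every gene but Syk, at 85.4, 183 and 45.3 CPM against 31.0, 23.8 and 44.9 CPM (10.9% of all genes were higher without overlap). None of the 9 was called when only the 6 flox libraries entered the fit (12.2% of all genes called in either direction). Blocking on replicate number left none called either (14.8%), with adjusted p of 0.104 to 0.254 for the 8 genes called above. The same held without flox vehicle replicate 3 and flox MTX replicate 1 together (12.9%). These libraries had the most epididymis RNA of their groups, and leaving out both was a choice made after seeing the data. Calls fell to 2 without flox vehicle replicate 3 alone (11.7% of all genes called in either direction) and to 5 without flox MTX replicate 2 (24%). Macrophage markers moved with the genes here too (10 of 12 called higher), as did 3 of 6 B cell, 5 of 7 T cell, 3 of 6 NK cell, 4 of 6 fibroblast and 5 of 6 mesothelial markers. Of 7 tested neutrophil markers 5 were called higher and 1 lower, while the 9 listed summed to less on MTX (33.9 to 105 CPM) than on vehicle (225 to 353 CPM) without overlap. The part of these cells in the result was not tested.

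In KO mice, MTX against vehicle gave none called of 9 (edgeR and DESeq2). With edgeR none reached an unadjusted p below 0.05 (3.42% of all genes were higher at that limit). Of all genes, edgeR called 0% and DESeq2 1.42%. Fcer1g stood at 190, 241 and 146 CPM in KO MTX replicates 2, 3 and 4, against 131, 138 and 255 CPM on vehicle. The groups overlapped for all 9 genes (11.1% of all genes were higher without overlap), and log2 fold changes lay between 0.13 (Tyrobp, ± 0.58) and 0.70 (Fcgr4, ± 0.65). These values do not show that MTX left the genes unchanged in KO mice, since the standard errors ran from 0.36 to 0.65.

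The interaction of genotype and MTX, which asks whether MTX acted differently in KO and in flox mice, was called for none of the 9 genes (edgeR and DESeq2). Of all genes, edgeR called 0.989% and DESeq2 5.89%. At an unadjusted p below 0.05 it reached Fcer1g (-1.72 ± 0.71), Tyrobp (-1.92 ± 0.84) and Fcgr1 (-1.78 ± 0.78), all in the direction of a smaller estimate in KO mice (5.45% of all genes were lower at that limit). The adjusted p of these 3 genes was 0.289, 0.313 and 0.320, and none was called without flox vehicle replicate 3 either. Without flox MTX replicate 4 Fcgr1 was called (-2.27, adjusted p = 0.0975). A difference in the response to MTX between the genotypes was therefore not shown for any of the 9 genes. Comparisons that share a group, such as the first and the third, are not independent of each other.

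Levels were next set against macrophage RNA in the same library, as the log2-CPM of a gene minus the mean log2-CPM of the 12 macrophage markers. On this scale Fcgr2b was lower in KO than in flox mice: -0.19, 1.17 and -0.45 in flox vehicle replicates 1, 3 and 4, and -1.53 to -1.27 in KO vehicle mice, a difference of -1.6 (-1.11 without flox vehicle replicate 3, still without overlap). In MTX mice the range was -0.93 to -0.36 in flox and -1.63 to -1.5 in KO mice, a difference of -0.87, again without overlap. Tyrobp was higher in KO vehicle mice by 1.15, Fcgr1 by 0.91, Fcer1g by 0.75 and Fcgr3 by 0.71, each without overlap, and Fcgr4 by 1.25 with overlap. Syk (-0.01), Sirpa (-0.05) and Clec7a (0.18) differed by little from the markers and overlapped. The range of Syk was -0.54 to -0.40 in flox vehicle and -0.51 to -0.47 in KO vehicle mice. So on vehicle the adaptors, Fcgr1 and Fcgr3 differed between genotypes by more than the marker list did, and Fcgr2b by less. Against Csf1r and Adgre1 alone, the differences on vehicle were -1.71 for Fcgr2b, 1.04 for Tyrobp, 0.81 for Fcgr1, 0.64 for Fcer1g and 0.6 for Fcgr3, and none of the 9 changed sign. Between genotypes on MTX 4 changed sign with this choice of markers: Fcer1g from 0.20 to -0.25, Syk from 0.08 to -0.37, Clec7a from 0.39 to -0.07 and Sirpa from 0.28 to -0.17. There Fcer1g turned from higher without overlap to lower without overlap. Fcgr1 (0.56 to 0.11) and Fcgr3 (0.46 to 0.01) came to overlap, while Tyrobp (0.66 to 0.21) stayed higher and Fcgr2b (-0.87 to -1.32) lower without overlap. For MTX in KO mice 5 of 9 differences were above 0 against the 12 markers and none against these 2, where 8 were lower without overlap, all but Fcgr4. These are differences of averages over a mixed tissue and carry no test.

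**Figure D4:**
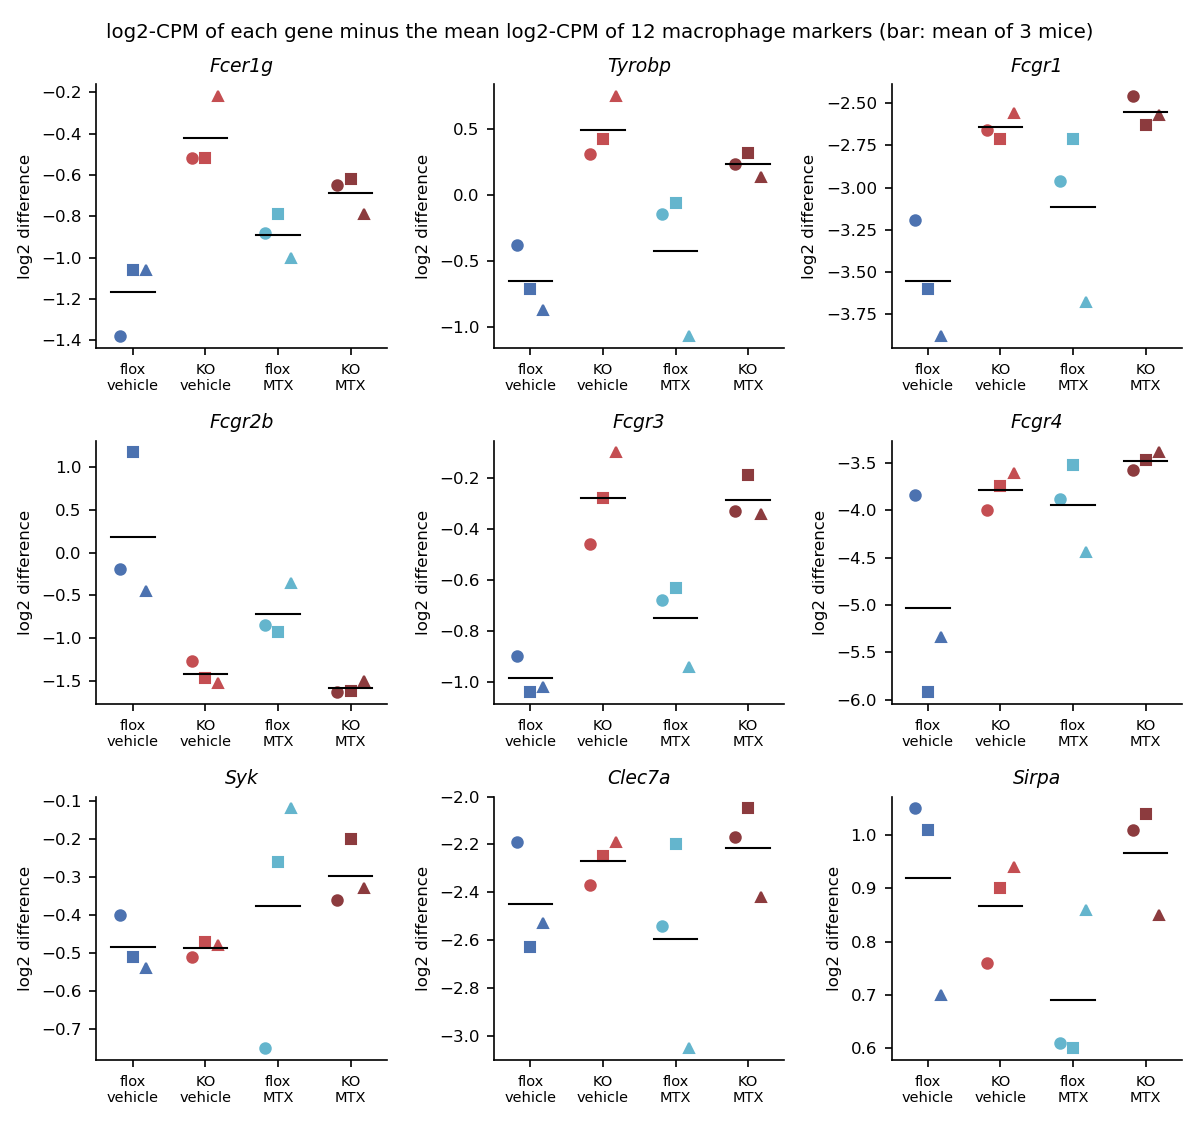
The log2-CPM of each gene minus the mean log2-CPM of 12 macrophage markers, by library and group, with a range of its own in each panel. Circle, square and triangle follow the replicate numbers and bars are means of 3 mice. Fcgr2b lies lower in both KO groups than in the flox groups, Tyrobp, Fcer1g and Fcgr3 lie higher in KO vehicle than in flox vehicle mice, and Syk lies between -0.75 and -0.12 in all libraries.

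The order of the members, compared per kilobase of exon, changed with the genotype. In flox vehicle mice the means fell from Tyrobp (43.9 ± 11.7 CPM per kilobase, SD) over Fcer1g (24.1 ± 10.1), Sirpa (17.6 ± 3.8), Fcgr3 (13.5 ± 4.55) and Fcgr2b (9.22 ± 3.57) to Syk (3.55 ± 1.15), Clec7a (3.23 ± 1.12), Fcgr1 (1.48 ± 0.373) and Fcgr4 (1.27 ± 0.919). Neighbours in this order overlapped except between Fcgr2b and Syk and between Clec7a and Fcgr1. In KO vehicle mice Tyrobp (500 ± 217) stood above Fcer1g (200 ± 79.2) without overlap, followed by Fcgr3 (111 ± 42.9) and Sirpa (85.4 ± 27.0). The remaining 5 genes, Clec7a, Syk, Fcgr2b, Fcgr1 and Fcgr4, lay between 13.4 and 18.1 with overlapping ranges. Fcgr2b, above Fcgr1 and Fcgr4 without overlap in flox vehicle mice, overlapped with both in KO vehicle mice. In KO MTX mice its mean (17.6 ± 2.86) was the lowest of the 9, with a range that overlapped that of Fcgr1 (20.2 ± 3.42). The adaptors differed slightly too: Tyrobp stood at 1.93 ± 0.61 times Fcer1g in flox vehicle, 2.48 ± 0.136 in KO vehicle, 1.87 ± 0.537 in flox MTX and 2.49 ± 0.0387 in KO MTX mice, and the genotypes overlapped on vehicle but not on MTX.

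Over the 12 libraries, log2-CPM of the 8 genes other than Fcgr2b correlated with Pearson's r between 0.944 and 0.996 (28 pairs, median 0.987), and Fcgr2b correlated with the others at 0.704 to 0.817 (8 pairs, median 0.808). The libraries share their groups and fall into high and low ones, so these values only describe the set. Outside the members, the genes most like their mean were Ctss (cathepsin S) and Tlr13 (r = 0.998 each) and Fermt3, Lat2 and P2ry6 (0.997 each). The single most similar gene was Rgs10 for Fcer1g (0.998), Cd300c2 for Tyrobp (0.998), Tlr13 for Fcgr1 (0.998), Nckap1l for Fcgr3 (0.999) and Cybb, a subunit of the phagocyte NADPH oxidase, for Syk (0.998). It was Oasl1 for Fcgr4 (0.986), Cd300a for Clec7a (0.996) and C5ar1, the receptor of complement C5a, for Sirpa (0.998). For Fcgr2b the closest gene was Scamp2, at 0.958.

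Beyond the 9 genes, 80 genes of the pathway were listed and 76 were tested, Trem1, Oscar and Gp6 having too few counts and Lilrb4a having no matching symbol. In mice on vehicle 50 were called higher in KO than in flox mice and 1 lower. Without flox vehicle replicate 3 the counts were 46 and 2, with 25.4% of all genes called in either direction. The median log2 fold change of the 76 genes was 1.32. Of all genes tested 13.9% were called higher and 17.8% lower, with a median of -0.056. The other Fc receptors were called higher in 2 of 6 cases (median 0.68), and Fcgrt (0.41), Fcmr (0.84), Fcrls (0.51) and Trim21 (0.21) were not called. Other ITAM-coupled receptors and adaptors were called higher in 9 of 13 cases. Trem2, a receptor for lipids that needs Tyrobp to signal, had the largest estimate (4.02 ± 0.87, adjusted p = 0.00669), with 14.4 to 27.2 CPM in flox and 247 to 526 CPM in KO mice. Cd300c2 (3.68), Cd300lb (3.24) and Clec4d, a lectin that pairs with the gamma chain (2.87), followed. Of the IgE receptor subunits, which share the gamma chain and mark mast cells, Fcer1a (2.80 ± 1.11, adjusted p = 0.0804) and Ms4a2 (2.29 ± 0.90, adjusted p = 0.0777) were called at levels of at most 1.83 CPM in KO vehicle mice. Mast cell markers were called higher in 6 of 8 cases, 2 of which are Fcer1a and Ms4a2 themselves.

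Kinases and effectors downstream of the ITAM were called higher in 20 of 27 cases. Among them were the adaptor Lat2, at 5.59 to 9.79 CPM in flox and 40.6 to 70.6 CPM in KO mice (log2 fold change 2.88), and the Rac activators Vav1 (2.52) and Dock2 (2.5). Src itself was the one gene called lower, from 28.5 to 54.4 CPM in flox to 20.1 to 21.3 CPM in KO mice (-0.99 ± 0.22, adjusted p = 0.00689). It was also called lower for MTX in flox mice (-0.83 ± 0.21, adjusted p = 0.0231). On MTX its range was 20.9 to 27.3 CPM in flox and 17.7 to 23.2 CPM in KO mice, without a call (-0.22 ± 0.21). Inhibitory receptors other than Fcgr2b and Sirpa were called higher in 9 of 12 cases, with a median of 2.62, led by Cd72 (3.36), Clec12a (3.28), Cd300a (3.08) and Cd200r1 (2.95). Phosphatases and other inhibitors were called higher in 9 of 13 cases. Inpp5d, which encodes the lipid phosphatase SHIP1 that docks on the ITIM of Fcgr2b, stood at 12.8 to 19.0 CPM in flox and 69.2 to 104 CPM in KO mice (2.42 ± 0.40, adjusted p = 0.00335), and Sla (2.22), Dok3 (2.07) and Dok2 (1.81) followed. Among 5 ligands, Cd47, the partner of Sirpa, was called higher by 0.71 ± 0.15 (adjusted p = 0.00581), while the 4 IgG heavy chain genes were not called and had estimates below 0.

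**Figure D5:**
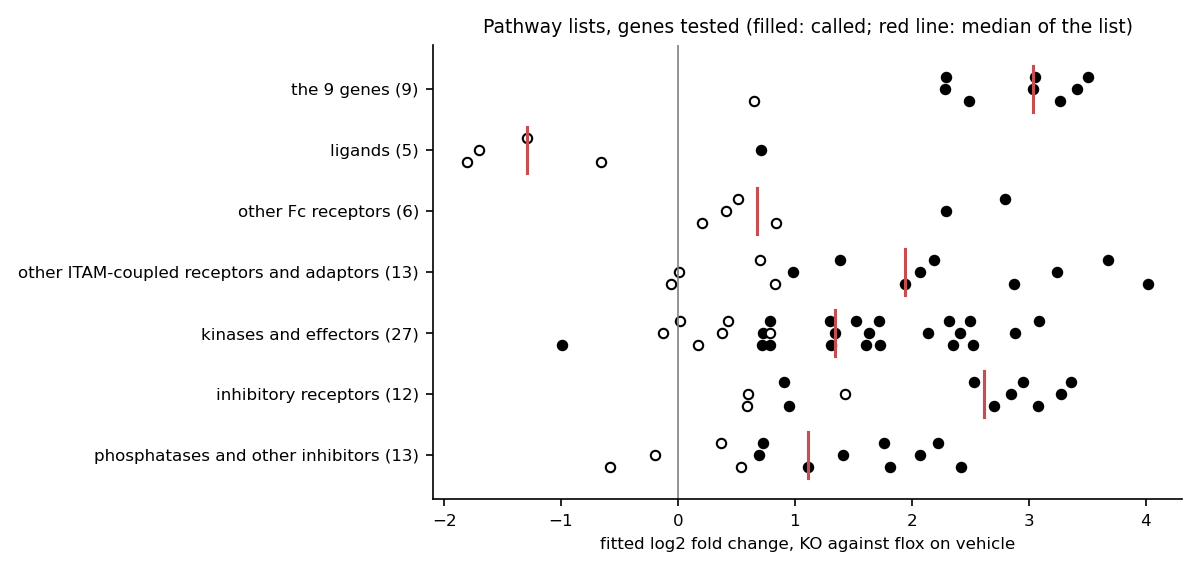
Fitted log2 fold changes between KO and flox mice on vehicle for the 9 genes and the 6 lists of other pathway genes, with the number of genes tested beside each name. Filled circles were called and red lines are the medians of the lists. The ligand list has its median at -1.29 and the inhibitory receptors theirs at 2.62, and the lone filled circle below 0 is Src.

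In mice on MTX, none of the 76 pathway genes was called between genotypes by edgeR, and 43 had an unadjusted p below 0.05 (24.5% of all genes did). DESeq2 called 32 higher and 1 lower (16.9% of all genes in either direction). For MTX in flox mice 35 were called higher and 1 lower (8.09% and 16.1% of all genes). But the counts fell to 5 and 0 without flox vehicle replicate 3 (11.7% of all genes called in either direction). In the fit of the 6 flox libraries alone they were 4 and 0 (12.2%), and with the replicate block 14 and 1 (14.8%). For MTX in KO mice none was called by edgeR (0% of all genes) or DESeq2 (1.42%), with 3 at an unadjusted p below 0.05 in edgeR (7.97%). The interaction was called for none by edgeR (0.989%) or DESeq2 (5.89%), with 4 at that limit in edgeR (15%). The median log2 fold change of the 76 genes was 0.84 between genotypes on MTX, 1.25 for MTX in flox and 0.44 for MTX in KO mice.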

How the data were processed

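Per the labels, RNA of white adipose tissue was extracted with Trizol, and the labels and design text name polyA RNA and paired reads of 150 bases where the study's methods name ribodepletion and 100 bases. The authors trimmed the reads (Trimmomatic 0.36), aligned them with STAR 2.5.2b to the mouse genome (mm10, GRCm38, Ensembl genes) and counted them per gene with featureCounts (Subread 1.5.2). Strand and multi-mapping settings are not given in the sources used here. The deposited values are raw counts without normalization. Symbols, positions and exon lengths came from GENCODE M21, which matched 99.3% of the genes. Genes without a symbol held 0.0688% of the counts.

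Counts were fitted in R 4.3.3 with edgeR 4.0.16: TMM factors, filterByExpr by group (18702 genes), 1 coefficient per group over the 12 libraries, the quasi-likelihood F-test and Benjamini-Hochberg adjustment over all genes tested. A call needs an adjusted p below 0.1 and a fold of at least 1.5. Male mice were age-matched littermates per the study's methods, and the labels do not tie mice to litters or cages. Log2-CPM used a prior count of 2, and CPM per kilobase the union of exons. The procedure was tested on simulated data. No 2 libraries of a group were duplicates (lowest chi-square per degree of freedom 12.9 in 12 pairs).

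Members, lists and tests were chosen with earlier results of these data known, and support from them is not independent. Named pathway genes are, per list, the up to 4 called genes with the largest change between genotypes on vehicle and any called gene of the opposite direction. One gene that this rule names is not reported here. Alternatives were DESeq2 1.42.0 (the tool of the study's methods), other scalings, filters and limits, a block for the replicate number, a fit of only the 6 libraries compared, and each library left out in turn. Leaving out flox vehicle replicate 3 with flox MTX replicate 1 was added after seeing the data.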

Additional observations from a re-analysis of the deposited data

How the results depend on the processing

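The count of members called is given with the share of all genes called in either direction in brackets. Between genotypes on vehicle it stayed between 8 and 9 when each library was left out (23.7% to 35%). For MTX in KO mice it stayed at 0 (0% to 1.1%). Between genotypes on MTX it was 0 (0%) and became 7 with DESeq2 (16.9%). It was 1 when genes of low count stayed in (2.53%) and 2 when each library needed at least 10 counts (10.6%). With a library left out it ran from 0 to 8, with 8 without flox MTX replicate 2 (20.8%). It was 1 when flox vehicle replicate 3 was dropped (5.4%). For MTX in flox mice it was 8 (24.2%) and became 0 with the replicate block (14.8%) and 0 in the 6 libraries alone (12.2%). It was also 0 without flox vehicle replicate 3 and flox MTX replicate 1 together (12.9%). With a single library left out it ran from 2 to 9 (11.7% to 30.9%). For the interaction it was 0 (0.989%) and ran from 0 to 1, the latter without flox MTX replicate 4 (0.611%). The cause of these shifts was not tested. A pairing of the mice by replicate number was not seen. The median r of residuals was 0.0353 over 12 same-numbered pairs (-0.273 to 0.254), against 0.0112 for 42 other pairs (-0.379 to 0.454). With 3 mice per group and so wide a spread, these values cannot exclude a pairing. Besides the count for MTX in flox mice, the replicate block changed no count of members.

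Without exon length, the mean ratio of activating receptors to Fcgr2b was 0.62 in flox vehicle, 2.88 in KO vehicle, 1.33 in flox MTX and 3.25 in KO MTX mice. Against Csf1r and Adgre1 alone, the level relative to macrophages changed sign for 4 of 9 genes between genotypes on MTX (Fcer1g to -0.25, Syk to -0.37, Clec7a to -0.07 and Sirpa to -0.17), for 5 for MTX in KO mice (Fcgr1 to -0.45, Fcgr4 to -0.23, Syk to -0.35, Clec7a to -0.48 and Sirpa to -0.44) and for Syk for MTX in flox mice (to -0.09). Without flox vehicle replicate 3, chosen after seeing the data, the relative level of Fcgr2b differed by -0.4 rather than -0.89 for MTX in flox mice. For MTX in KO mice the estimate of Fcer1g was between -0.06 and -0.0048, and that of Tyrobp between -0.08 and -0.0038, without KO vehicle replicate 1, KO vehicle replicate 2 or KO MTX replicate 3, and up to 0.51 and 0.54 without KO vehicle replicate 3. The interaction of Fcgr2b ran from -0.61 to 0.12, the latter without flox MTX replicate 2. Scaling by library size alone moved the median of all genes by -0.20 for MTX in flox mice and by 0.17 between genotypes on MTX. It left 7 and 0 members called (23.4% and 0% of all genes in either direction). Depth limits Fcgr4 most, with 12 counts in its lowest library.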
